A study of Mus musculus with 2 samples.

Results

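The MHC class II presentation genes are 10 of the 45318 genes in the deposited count table. They were chosen by name, as the rows whose Ensembl mouse identifiers map to H2-Aa, H2-Ab1, H2-Eb1, Cd74, Ciita, H2-DMa, H2-DMb1, H2-DMb2, H2-Oa and H2-Ob, and all 10 were found. RNA was sequenced from C57Bl/6 mouse leukaemia cells with a GFP reporter and MLL/AF9, a gene fusion that drives acute myeloid leukaemia. One library came from mice given brequinar, an inhibitor of dihydroorotate dehydrogenase in de novo pyrimidine synthesis, and the other from mice given vehicle. In both groups the GFP-positive cells were sorted from bone marrow, and both carry the same fusion. The sources used here give no dose, treatment time, animal age or count of animals per library. Each treatment has 1 library, so the differences below come without replicate checks or p-values.

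MHC class II molecules present peptides from endosomes to helper T cells. The classical alpha and beta chains assemble in the endoplasmic reticulum with the invariant chain, which blocks the groove and directs the complex to endosomes, where proteases trim it to a short remnant. H2-DM then exchanges this remnant for antigenic peptide, H2-DO restrains H2-DM, and Ciita is the coactivator that turns on the whole set from a shared promoter module. These genes are characteristic of B cells, dendritic cells and activated macrophages, and in acute myeloid leukaemia their level varies with the subtype.

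The genes did not move as a block. The classical chain genes H2-Aa and H2-Eb1 and the invariant chain gene Cd74 had more than 2-fold higher levels in brequinar cells. So did the DM beta chain gene H2-DMb2, whereas H2-DMa and H2-Oa had more than 2-fold lower levels. H2-DMa and H2-DMb1 were far more abundant than the other 8 genes in both libraries. The summed level of all 10 genes was 123 CPM (a gene's count as a rate of the library total after TMM scaling) in the brequinar library and 171 CPM in the vehicle library, while the sum without H2-DMa and H2-DMb1 was 40.8 CPM in the brequinar library and 27.6 CPM in the vehicle library.

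The gene counts summed to 47950714 in the brequinar library and 47935476 in the vehicle library, so a single count was worth 0.0215 CPM in the brequinar library and 0.0202 CPM in the vehicle library. Myeloid identity genes were abundant in both libraries, with 1 of 10 at least 2-fold higher and 3 lower. Over all genes that averaged 1 CPM or more, 6.45% were at least 2-fold higher and 4.4% lower. Spi1, the master factor of myeloid cells, stood at 392 CPM in the brequinar library and 287 CPM in the vehicle library, and Mpo, the myeloperoxidase gene of primary granules, at 979 CPM in the brequinar library and 5912 CPM in the vehicle library. The intervals given are at 95% and are exact, apart from those of ratios per kilobase that hold a sum of genes. They hold counting error alone, since PCR copies are not separate molecules. Fewer cells of a type and less RNA per cell cannot be told apart in such libraries.

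Promoter stretches are shown for 5 of the genes, to set the letters of the shared class II promoter module beside their levels. RefSeq windows of 300 bases (GRCm38.p6, 250 before to 50 after the annotated start) were matched for 7 of the 10 genes, which are H2-Aa, H2-Eb1, H2-DMa, H2-DMb1, H2-DMb2, H2-Oa and H2-Ob. Class II promoters share an X box, bound by the RFX complex, and a Y box, bound by NF-Y. The Y box was searched as ATTGG and the core of the X box as AGCAAC, each on both strands, and the letters do not overlap. Capitals mark these letters on the gene's own strand. Each stretch of 100 bases ends at position -39 relative to the RefSeq start.
H2-Aa (chr17:34287862-34287961, minus strand): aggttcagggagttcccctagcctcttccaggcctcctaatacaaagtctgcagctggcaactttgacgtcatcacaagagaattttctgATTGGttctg
H2-Eb1 (chr17:34305729-34305828, plus strand): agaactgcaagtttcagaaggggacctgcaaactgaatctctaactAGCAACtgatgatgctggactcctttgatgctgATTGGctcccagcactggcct
H2-DMb2 (chr17:34145111-34145210, plus strand): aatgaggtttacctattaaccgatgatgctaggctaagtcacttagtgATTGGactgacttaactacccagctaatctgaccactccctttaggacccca
H2-Oa (chr17:34092241-34092340, plus strand): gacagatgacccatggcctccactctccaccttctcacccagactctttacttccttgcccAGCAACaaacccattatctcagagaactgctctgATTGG
H2-Ob (chr17:34238767-34238866, plus strand): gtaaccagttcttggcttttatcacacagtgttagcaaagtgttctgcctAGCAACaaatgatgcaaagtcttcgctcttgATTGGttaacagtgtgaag

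ATTGG was present on the gene's own strand in a window of all 7 genes, against 37.4% of 32851 promoter windows on either strand. It began at positions -43, -48, -57, -59, -61 and -90 in H2-Oa, H2-Aa, H2-Ob, H2-Eb1, H2-DMb1 and H2-DMb2, and at -198 in 1 of the 2 H2-DMa windows. H2-DMa, which was lower in the brequinar library, had neither motif in the matching 100 bases of either window and is not printed. AGCAAC was found in H2-Eb1, H2-Oa and H2-Ob, against 14.8% of all windows. In these 3 genes it lay on the same strand as ATTGG, with 27, 28 and 25 bases between them. Both motifs in this order, 10 to 35 bases apart, occurred in 0.423% of all windows. Of the 3 genes with both, H2-Eb1 was higher in the brequinar library, H2-Oa was lower and H2-Ob was lower within 2-fold. The part of these letters in the direction was not tested. A match is a description of the sequence and not a shown site. The search took these exact letters only, so a gene without a match may hold a variant of either box.

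Among the classical chains, H2-Aa encodes the alpha chain of I-A, the class II molecule that C57BL/6 mice display. H2-Aa had 351 counts (7.56 CPM) in the brequinar library and 152 counts (3.07 CPM) in the vehicle library. The fold was 2.46 (interval 2.03 to 3.0), wholly beyond 2-fold. H2-Ab1 encodes the beta chain that pairs with it. H2-Ab1 had 267 counts (5.75 CPM) in the brequinar library and 215 counts (4.35 CPM) in the vehicle library, a fold of 1.32 (interval 1.10 to 1.59). The intervals of H2-Aa and H2-Ab1 did not overlap, so the chains of 1 dimer differed by unequal folds at this depth.

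H2-Eb1 encodes the beta chain of I-E, a second class II molecule. H2-Eb1 had 165 counts (3.55 CPM) in the brequinar library and 64 counts (1.29 CPM) in the vehicle library, 2.75-fold higher (interval 2.05 to 3.73). The C57BL/6 strain lacks a working gene for the I-E alpha chain, which the annotation lists as H2-Ea-ps. H2-Ea-ps had a count of 0 in both libraries, which allows up to 0.0646 CPM in the brequinar library and 0.0606 CPM in the vehicle library (3 counts). The related H2-Eb2 had 5 counts in the brequinar library and 12 in the vehicle library, too few to separate them (fold 0.444, interval 0.122 to 1.35). Summed over H2-Aa, H2-Ab1 and H2-Eb1, the classical chains stood at 16.9 CPM in the brequinar library and 8.71 CPM in the vehicle library, a fold of 1.94 (interval 1.72 to 2.18).

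Cd74 encodes the invariant chain and lies apart from the others, on chromosome 18 (60803848 to 60812652, GRCm38). Cd74 had 492 counts (10.6 CPM) in the brequinar library and 219 counts (4.43 CPM) in the vehicle library. It was 2.39-fold higher (interval 2.04 to 2.82), and its interval overlapped those of H2-Aa and H2-Eb1. Even in the brequinar library this level exceeded that of only 27.9% of the 11504 genes that averaged 1 CPM or more, and in the vehicle library that of 16.3%.

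Ciita, on chromosome 16 (10480059 to 10528418), was the least abundant of the 10. Ciita had 15 counts (0.323 CPM) in the brequinar library and 4 counts (0.0808 CPM) in the vehicle library. The fold was 3.99 with a wide interval of 1.27 to 16.5, and the gene stayed below the filter of 1 CPM, so it entered no count of calls. Exons of Ciita and of Dexi, on the opposite strand, overlap by 329 bases. Dexi had 111 counts in the brequinar library and 181 counts in the vehicle library, the opposite direction to Ciita. The sources used here do not give the strand setting of the counts.

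**Figure D1:**
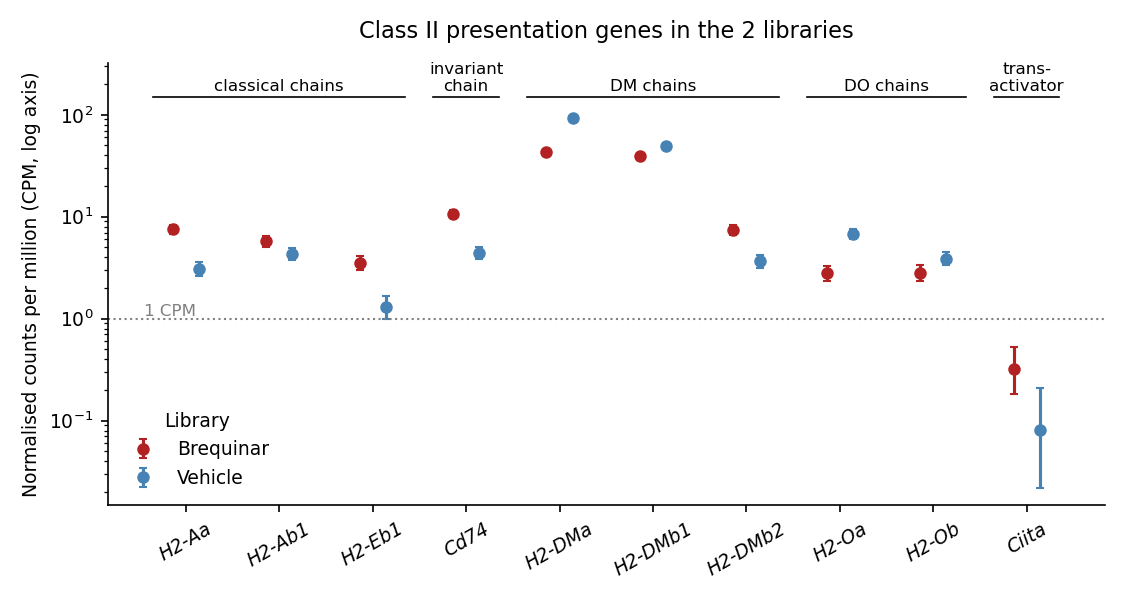
Level of each of the 10 class II presentation genes in TMM-scaled CPM (log axis) in the brequinar (left, red) and vehicle (right, blue) library, with exact 95% counting intervals. H2-DMa and H2-DMb1 lie between 39.1 and 93.9 CPM, the other 7 genes that passed the filter between 1.29 and 10.6 CPM, and Ciita below 1 CPM in both libraries.

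H2-DM is a dimer of an alpha chain and a beta chain, and the mouse has a pair of beta chain genes. H2-DMa, the alpha chain gene, had 2014 counts (43.4 CPM) in the brequinar library and 4645 counts (93.9 CPM) in the vehicle library. It was 2.17-fold lower in the brequinar library (interval 2.05 to 2.28), wholly beyond 2-fold. H2-DMb1 had 1817 counts (39.1 CPM) in the brequinar library and 2459 counts (49.7 CPM) in the vehicle library, 1.27-fold lower (interval 1.20 to 1.35). In H2-DMa, 360 exon bases overlap exons of Brd2 on the opposite strand, and Brd2, a bromodomain gene, stood at 295 CPM in the brequinar library and 315 CPM in the vehicle library.

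H2-DMb2, the neighbouring copy, went the other way. H2-DMb2 had 345 counts (7.43 CPM) in the brequinar library and 181 counts (3.66 CPM) in the vehicle library, a fold of 2.03 (interval 1.69 to 2.44). Its call sits at the limit: it was at least 2-fold higher by TMM and by DESeq2 size factors, but not by total counts, by upper quartile or by totals without the 50 most abundant genes. The longest transcripts of H2-DMb1 and H2-DMb2 were identical at 94.6% of 1219 aligned bases, and 13.5% of the 101-base windows of H2-DMb1 and 12.7% of those of H2-DMb2 also occurred in the other gene. The table sets multimapping reads on a line apart from the genes, so counts of this pair are uncertain. Per kilobase of exon, H2-DMb2 made 0.183 of H2-DMb1 in the brequinar library (interval 0.162 to 0.205) and 0.0708 in the vehicle library (interval 0.0606 to 0.0824), a ratio within each library that no scaling between libraries can change.

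H2-DO is a dimer of H2-Oa and H2-Ob and is known chiefly from B cells and the thymus. H2-Oa had 130 counts (2.80 CPM) in the brequinar library and 337 counts (6.81 CPM) in the vehicle library. It was 2.43-fold lower (interval 1.98 to 3.0). H2-Oa overlaps the antisense gene BC051537 by 321 exon bases, and 10.6% of its 101-base windows also occur there; BC051537 had 0 counts in the brequinar library and 13 in the vehicle library. H2-Ob had 131 counts (2.82 CPM) in the brequinar library and 192 counts (3.88 CPM) in the vehicle library, 1.38-fold lower (interval 1.10 to 1.73). The DO chains together stood at 5.62 CPM in the brequinar library and 10.7 CPM in the vehicle library, 1.90-fold lower (interval 1.64 to 2.22).

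Of the 9 class II genes that averaged 1 CPM or more, 4 passed 2-fold on the higher side, as did 6.45% of all 11504 such genes, and 2 passed it on the lower side, as did 4.4%. Log2 ratios above 0 were found for 5 of the 9 and for 50.1% of all genes. All 9 were above 1 CPM in both libraries. With the whole counting interval required beyond 2-fold, 3 of the 9 were higher (H2-Aa, H2-Eb1 and Cd74; background 5.22%) and 1 was lower (H2-DMa; background 2.5%). The intervals of 5 of the 9 lay wholly above 1-fold and those of the other 4 wholly below, but at this depth the same held for 39.2% and 37.7% of all genes. The median log2 ratio of the 9 was 0.40, beside 0.00029 for all 11504 genes, and it was 0.71 over all 10 genes with Ciita. The ratios of the 9 ran from -1.27 (H2-Oa) to 1.43 (H2-Eb1), and the median is that of H2-Ab1.

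**Figure D2:**
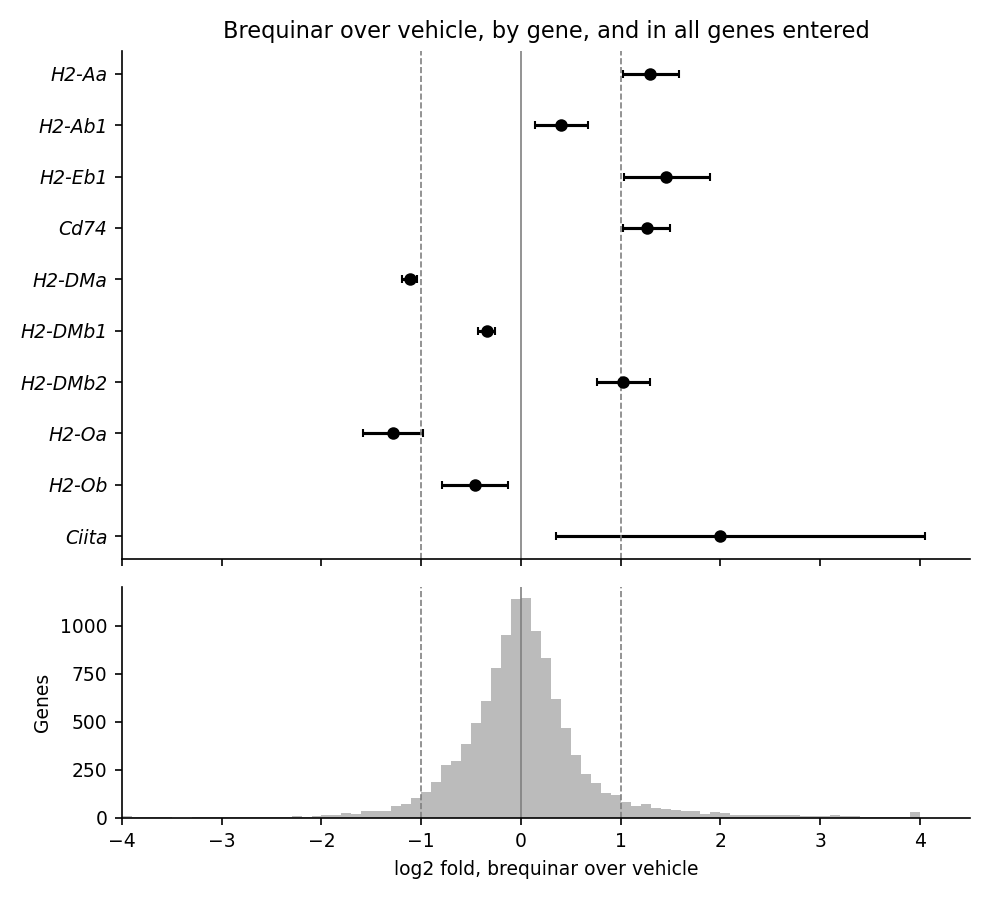
Upper panel, log2 fold (brequinar over vehicle) of each class II presentation gene with its exact 95% counting interval; dashed lines mark 2-fold. Lower panel, number of genes by log2 ratio (with a prior count of 2) among the 11504 genes that averaged 1 CPM or more, where values beyond 4 in either direction are drawn in the end bins. H2-Aa, H2-Eb1 and Cd74 lie wholly above 2-fold and H2-DMa wholly below, while the interval of H2-DMb2 crosses the line.

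The make-up of class II presentation RNA differed between the libraries. The DM chains held 72.9% of the summed counts of the 10 genes in the brequinar library (exact binomial interval 71.7% to 74.1%) and 86.0% in the vehicle library (85.3% to 86.8%). The classical chains held 13.7% in the brequinar library (12.8% to 14.6%) and 5.09% in the vehicle library (4.63% to 5.58%). Cd74 held 8.59% in the brequinar library (7.88% to 9.35%) and 2.59% in the vehicle library (2.26% to 2.95%). H2-DMa alone held 35.2% in the brequinar library and 54.9% in the vehicle library, and these shares do not depend on the scaling between libraries.

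**Figure D3:**
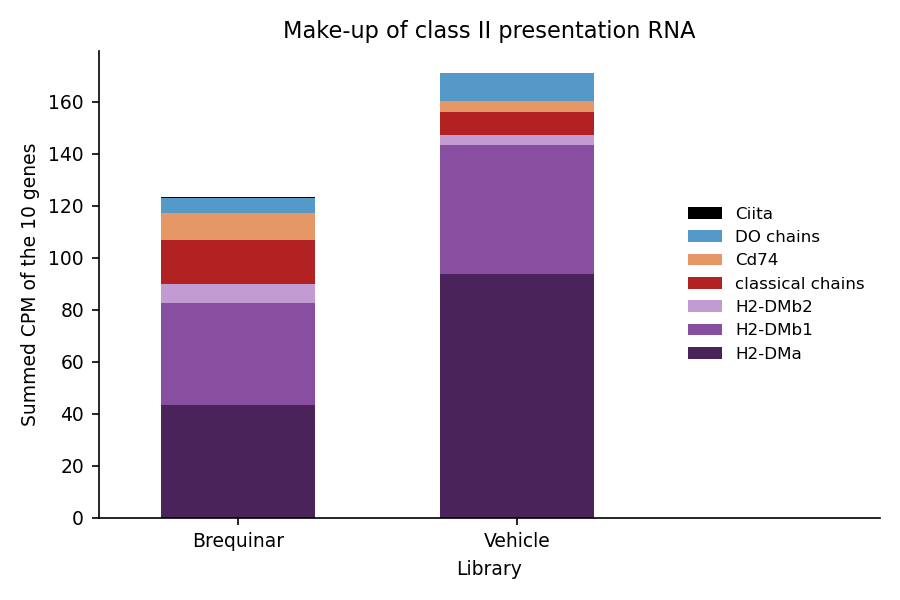
Summed CPM of the 10 class II presentation genes in the brequinar (left) and vehicle (right) library, stacked by gene or chain group. The total is 123 CPM in the brequinar library and 171 CPM in the vehicle library, and the H2-DMa segment is 43.4 CPM in the brequinar library and 93.9 CPM in the vehicle library.

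Per kilobase of annotated exon, H2-DMb1 stood at 23.3 CPM per kilobase in the brequinar library and 29.6 in the vehicle library, and H2-DMa at 12.6 in the brequinar library and 27.2 in the vehicle library. Cd74, the invariant chain gene, came next in the brequinar library, at 6.31 CPM per kilobase against 2.64 in the vehicle library, where H2-Oa stood above it at 4.84. In the brequinar library H2-Ab1, H2-Aa, H2-Oa and H2-Eb1 stood at 2.24, 1.99, 1.99 and 1.83 CPM per kilobase. The interval of H2-Aa over H2-Ab1 included 1, and that of H2-Eb1 over H2-Ab1 (0.668 to 0.995) ended just below it. These levels depend on the length used. When the longest transcript with a consensus coding sequence was used in place of all exons, a choice made after seeing the data, H2-Aa stood at 6.70 CPM per kilobase in the brequinar library and 2.72 in the vehicle library, and H2-DMa at 26.1 in the brequinar library and 56.6 in the vehicle library. H2-DMb1 then stood at 27.9 in the brequinar library and 35.4 in the vehicle library, so the order of H2-DMa and H2-DMb1 in the vehicle library turned over with the length. In the brequinar library H2-Ab1, H2-Oa and H2-Eb1 then stood at 4.74, 2.57 and 2.13 CPM per kilobase.

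The ratio between the chains of a dimer had different values in the libraries. H2-Aa over H2-Ab1 was 0.889 per kilobase in the brequinar library (interval 0.756 to 1.05) and 0.478 in the vehicle library (0.386 to 0.591). H2-DMa over the sum of H2-DMb1 and H2-DMb2 was 0.457 in the brequinar library (0.430 to 0.486) and 0.860 in the vehicle library (0.820 to 0.902). H2-Oa over H2-Ob was 3.79 in the brequinar library (2.95 to 4.87) and 6.71 in the vehicle library (5.60 to 8.06). In these 3 pairs the intervals of the libraries did not overlap, and that of the DM pair, which holds a sum, is approximate. Counting intervals are narrow at this depth, where 39.2% of all genes lay wholly above 1-fold and 37.7% wholly below, and other gene pairs were not compared.

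Between the complexes, the DM chains exceeded the classical chains 6.62-fold per kilobase in the brequinar library (interval 6.13 to 7.16) and 18.6-fold in the vehicle library (16.9 to 20.5). The DM chains exceeded the DO chains, their inhibitor, 16-fold in the brequinar library (14.1 to 18.1) and 10.6-fold in the vehicle library (9.69 to 11.6). Cd74 over the classical chains was 1.04 in the brequinar library (0.929 to 1.17) and 0.833 in the vehicle library (0.704 to 0.982), with overlapping intervals. The intervals of these sums are those of the pooled counts, rescaled to the ratio per kilobase. They are approximate and can be too narrow, since genes of unlike length weigh unequally in the sums. The absolute value of most of these ratios moved with the length used.

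Of the 10 genes, 8 lie in the class II region of chromosome 17 (34092340 to 34344645, GRCm38, from H2-Oa to H2-Ea-ps). Along this stretch of 252306 bases, 13 of 19 annotated genes in the table averaged 1 CPM or more, of which 3 were at least 2-fold higher (H2-DMb2, H2-Aa and H2-Eb1) and 2 at least 2-fold lower (H2-Oa and H2-DMa), beside 6.45% and 4.4% of all genes. The call of H2-DMb2 is the one that depends on the scaling. H2-DMa (34119541 to 34139101) and H2-DMb2 (34143307 to 34151555) lie next to each other on the plus strand and were past 2-fold in opposite directions. The other 5 measured genes, Brd2 and the class I processing genes Psmb9, Tap1, Psmb8 and Tap2, were all within 2-fold. Tap1, a subunit of the peptide transporter, stood at 168 CPM in the brequinar library and 115 CPM in the vehicle library, and its partner Tap2 at 168 CPM in the brequinar library and 231 CPM in the vehicle library. At the far end, H2-Ab1 (34257689 to 34269419), H2-Aa (34282744 to 34287823, minus strand) and H2-Eb1 (34305867 to 34316674) all had higher values in the brequinar library.

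**Figure D4:**
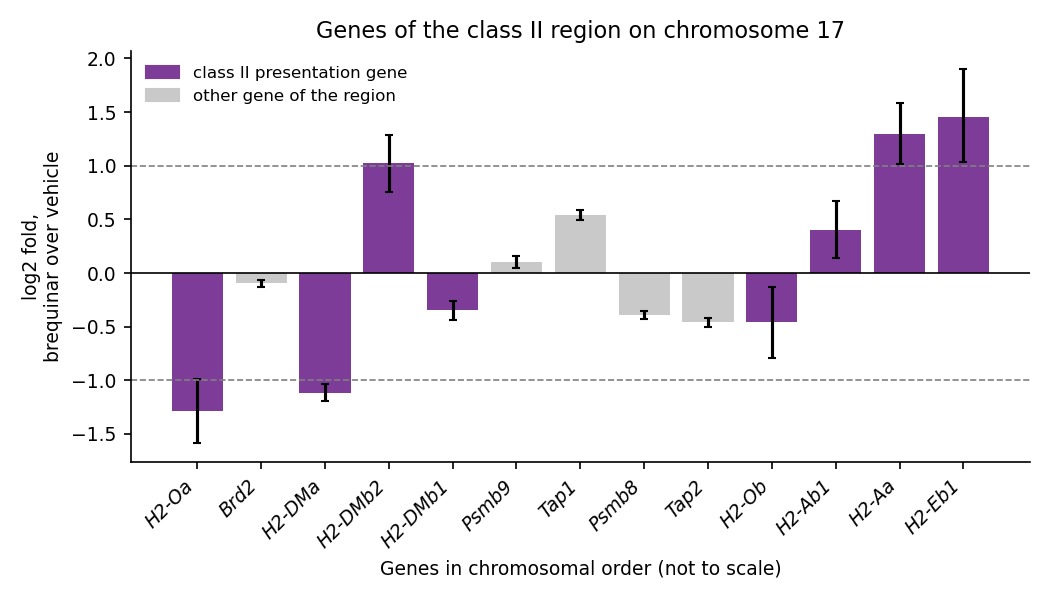
log2 fold (brequinar over vehicle) of the 13 genes of the chromosome 17 class II region that averaged 1 CPM or more, in chromosomal order, with exact 95% counting intervals; dashed lines mark 2-fold. Class II presentation genes are purple and other genes grey. H2-Aa and H2-Eb1 at one end are above 2-fold, H2-Oa and H2-DMa at the other end have values under -1, and the 5 grey genes are within 2-fold.

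Upstream of the set, the factors that assemble on class II promoters were within 2-fold. None of the 13 genes of the enhanceosome and its coactivators passed 2-fold (median log2 ratio 0.12). Among all genes the shares past 2-fold were 6.45% up and 4.4% down. At these shares a list of 13 would hold few calls, so their absence does not set the factors apart from other genes. Rfx5, the DNA-binding subunit of RFX, stood at 22.9 CPM in the brequinar library and 28.2 CPM in the vehicle library. Its partners Rfxap (20.3 CPM in the brequinar library and 16.8 CPM in the vehicle library) and Rfxank (14.6 CPM in the brequinar library and 13.6 CPM in the vehicle library) were also within 2-fold. Creb1, which binds the X2 box, had the largest ratio of the list, 1.87-fold higher (interval 1.81 to 1.93). It was followed by Atf1, a relative of Creb1 (1.42-fold higher), Nfyb, a subunit of NF-Y (1.35-fold higher), and the acetyltransferase gene Kat2b (1.27-fold higher).

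Among 14 measured factors known to act at Ciita promoters, 2 were at least 2-fold higher and 1 lower (median log2 ratio 0.20). The shares over all genes were 6.45% and 4.4%. Irf8, which directs monocyte and dendritic cell development, was lower, with 13.8 CPM in the brequinar library and 51.5 CPM in the vehicle library, 3.74-fold. Bcl6, a transcriptional repressor, stood at 15.6 CPM in the brequinar library and 4.20 CPM in the vehicle library, 3.71-fold higher (interval 3.17 to 4.35). Irf1, which carries the interferon gamma signal to the Ciita promoter, stood at 108 CPM in the brequinar library and 52.9 CPM in the vehicle library. Its fold of 2.03 (interval 1.94 to 2.13) passed the rule by TMM but not by total counts or upper quartile.

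Of 20 measured interferon gamma signalling and response genes, 12 passed 2-fold on the higher side and none on the lower. The shares over all genes were 6.45% and 4.4%, and the median log2 ratio of the 20 was 1.14. The largest ratios were those of Gbp4, a guanylate-binding GTPase (3.47 CPM in the brequinar library and 0.344 CPM in the vehicle library), and Socs3, a feedback inhibitor of cytokine signalling (2.65 CPM in the brequinar library and 0.566 CPM in the vehicle library). Gbp4 and Socs3 were below 1 CPM in the vehicle library and passed the filter only through the brequinar library. Of the other 18, 10 were at least 2-fold higher, and their median log2 ratio was 1.04 over all 18. Gbp2 (87.9 CPM in the brequinar library and 21.2 CPM in the vehicle library) and the chemokine gene Cxcl9 (4.59 CPM in the brequinar library and 1.13 CPM in the vehicle library) followed. Ifng itself had 2 counts in the brequinar library and 0 in the vehicle library. The part of these genes in the class II values was not tested.

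Endosomal processing genes showed 1 of 18 at least 2-fold higher and none lower (median log2 ratio 0.17), beside 6.45% and 4.4% of all genes. The higher gene was Lgmn, an asparagine endopeptidase, at 5.38 CPM in the brequinar library and 2.49 CPM in the vehicle library. Ctss, the cathepsin that makes the last cuts in the invariant chain, had the largest ratio on the lower side and was within 2-fold, at 14.2 CPM in the brequinar library and 22.9 CPM in the vehicle library. Ifi30, a thiol reductase of endosomes, stood at 19.9 CPM in the brequinar library and 21.8 CPM in the vehicle library. Cd82, a tetraspanin (1.82-fold higher), and Ctsh, an aminopeptidase cathepsin (1.67-fold higher), were also within 2-fold.

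Among 7 measured genes of class II turnover, 1 was at least 2-fold higher and none lower (median log2 ratio 0.36). Of all genes, 6.45% were higher and 4.4% lower. The higher gene was March1, a ubiquitin ligase that removes class II from the surface. March1 had 681 counts (14.7 CPM) in the brequinar library and 132 counts (2.67 CPM) in the vehicle library, 5.50-fold higher (interval 4.55 to 6.67). Its relative March8 was 1.32-fold higher, the ubiquitin-conjugating enzyme gene Ube2d3 1.56-fold higher and the clathrin adaptor gene Ap2m1 1.29-fold higher.

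Among 8 measured costimulatory and T cell contact genes, 3 were at least 2-fold higher and none lower (median log2 ratio 0.59). Over all genes the shares were 6.45% and 4.4%. Cd80, a ligand of CD28, stood at 18.5 CPM in the brequinar library and 4.89 CPM in the vehicle library. The inhibitory ligand genes Vsir (504 CPM in the brequinar library and 212 CPM in the vehicle library) and Cd274, which encodes PD-L1 (12.5 CPM in the brequinar library and 6.18 CPM in the vehicle library), were the others, and Cd274 lay at the limit (2.03-fold, interval 1.76 to 2.33). Icam1, an adhesion ligand, was 1.76-fold higher. Cd86, the other CD28 ligand, had 69 counts in the brequinar library and 15 in the vehicle library and was below the filter, and Cd40 had 7 counts in each.

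Class I presentation genes give the nearest comparison. Of 16 measured class I genes, 1 was at least 2-fold higher and none lower (median log2 ratio 0.08), beside shares of 6.45% and 4.4% over all genes, and their summed level was 7429 CPM in the brequinar library and 7043 CPM in the vehicle library, far above that of the class II genes. The gene called was Nlrc5, the class I relative of Ciita, at 29.8 CPM in the brequinar library and 10.8 CPM in the vehicle library, 2.77-fold higher (interval 2.50 to 3.07). The heavy chain genes H2-K1 (802 CPM in the brequinar library and 492 CPM in the vehicle library) and H2-D1 (1263 CPM in the brequinar library and 786 CPM in the vehicle library) were within 2-fold, as was Calr, an endoplasmic reticulum chaperone with the largest ratio on the lower side (1213 CPM in the brequinar library and 2300.4 CPM in the vehicle library). With 1 library per treatment, the difference between class I and class II genes was not tested.

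Markers of other cells that carry class II were measured beside these genes. Of 12 measured macrophage markers, 10 were at least 2-fold higher, none was lower and the median log2 ratio was 3.04. The shares over all genes were 6.45% higher and 4.4% lower. Mrc1, the mannose receptor (9.99 CPM in the brequinar library and 0.647 CPM in the vehicle library), Cd163, a haemoglobin scavenger receptor (5.94 CPM in the brequinar library and 0.465 CPM in the vehicle library), Spic, a factor of red pulp macrophages (3.14 CPM in the brequinar library and 0.243 CPM in the vehicle library), and Axl, a receptor for dying cells (18.3 CPM in the brequinar library and 1.84 CPM in the vehicle library), led the list. Of the 12, 5 (Mrc1, Cd163, Spic, C1qa and C1qc) were below 1 CPM in the vehicle library and passed the filter on their mean only through the brequinar library where they were high, so these 5 had to differ in order to be counted. The other 7 were above 1 CPM in both libraries, and 5 of them were at least 2-fold higher (median log2 ratio of the 7, 2.81). The most abundant members, Vcam1 (496 CPM in the brequinar library and 369.6 CPM in the vehicle library) and Adgre1 (225 CPM in the brequinar library and 221 CPM in the vehicle library), were within 2-fold and carried most of the summed level of 986 CPM in the brequinar library and 647 CPM in the vehicle library. No macrophage marker was at 0 in either library. The part of macrophage RNA in the higher H2-Aa, H2-Eb1 and Cd74 values was not tested.

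B cell markers showed 1 of 7 measured members higher and 1 lower (median log2 ratio 0.21), beside 6.45% and 4.4% of all genes. Their summed level was 228 CPM in the brequinar library and 273 CPM in the vehicle library, most of it from Cd37 (205 CPM in the brequinar library and 237 CPM in the vehicle library). Cd79b, a signalling chain of the B cell receptor, was the lower one, at 9.86 CPM in the brequinar library and 26.2 CPM in the vehicle library, and Vpreb1, of the pre-B cell receptor, the higher one, at 1.61 CPM in the brequinar library and 0.424 CPM in the vehicle library, so that it passed the filter only through the brequinar library. Cd79a stood at 3.62 CPM in the brequinar library and 2.57 CPM in the vehicle library, and Vpreb3 at 1.25 CPM in the brequinar library and 1.01 CPM in the vehicle library. No member was at 0, and the part of B cells in the DO values was not tested.

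Of 12 conventional dendritic cell markers, 4 averaged 1 CPM or more, as did 11504 of all 45318 genes. The rest included the defining genes Xcr1 (1 count in the brequinar library and 2 in the vehicle library), Zbtb46 (7 in each) and Clec9a (13 in the brequinar library and 9 in the vehicle library). Of the 4, 1 was at least 2-fold higher and 1 lower, beside 6.45% and 4.4% of all genes. Itgax, which encodes CD11c, was higher (3.06 CPM in the brequinar library and 0.768 CPM in the vehicle library, below the filter there), and the cytokine receptor gene Flt3 was lower (1.44 CPM in the brequinar library and 4.49 CPM in the vehicle library). Clec10a stood at 1.55 CPM in the brequinar library and 1.56 CPM in the vehicle library, and Sirpa, which myeloid cells also carry, held most of the summed level of 317 CPM in the brequinar library and 208 CPM in the vehicle library. None of the 12 was at 0.

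Plasmacytoid dendritic cell markers showed 1 of 7 higher and 1 lower (median log2 ratio 0.03), beside 6.45% and 4.4% of all genes. Their summed level was 170.4 CPM in the brequinar library and 145 CPM in the vehicle library, with none at 0. Siglech, a surface lectin that defines these cells, was higher at a low level (1.81 CPM in the brequinar library and 0.505 CPM in the vehicle library), and Klk1 was lower (0.344 CPM in the brequinar library and 2.28 CPM in the vehicle library). Each of these passed the filter only through the library where it was high, and none of the other 5 passed 2-fold. Lair1, an inhibitory receptor, was 1.88-fold higher, Tcf4, a factor of this lineage, 1.63-fold higher, and Bst2 was 1.14-fold lower. Monocyte markers showed 3 of 10 higher and 1 lower (median log2 ratio 0.23), beside the same shares of all genes. They summed to 1062 CPM in the brequinar library and 1044 CPM in the vehicle library. Of the 3 higher, 2 (Treml4 among them) passed the filter only through the brequinar library. They were led by Treml4 (3.01 CPM in the brequinar library and 0.243 CPM in the vehicle library) and the nuclear receptor gene Nr4a1 (790 counts in the brequinar library and 79 in the vehicle library). Ms4a6c was 2.89-fold lower and Ly6c2, the most abundant, 1.13-fold higher. Of 11 T and NK cell markers, 1 passed 1 CPM, the cytotoxic granule gene Nkg7, which was 2.96-fold lower, and the CD3 chain gene Cd3e had 3 counts in the brequinar library and 4 in the vehicle library. The part of these cells in the class II values was not tested.

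**Figure D5:**
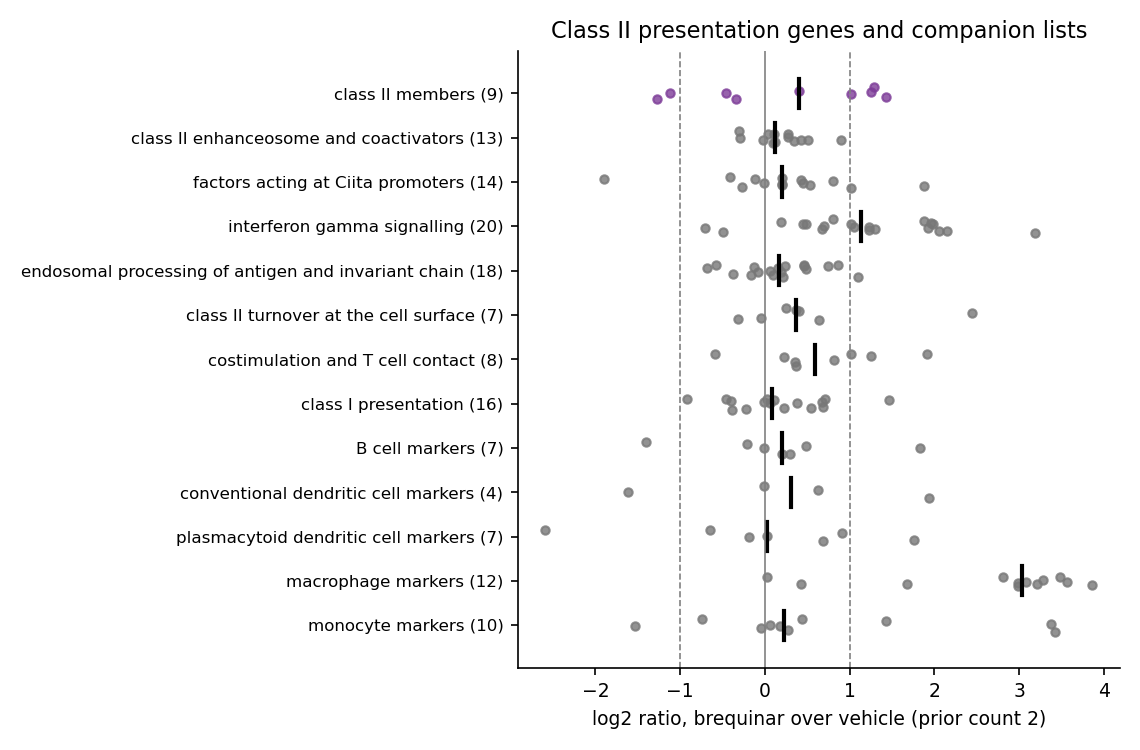
log2 ratio (brequinar over vehicle, prior count of 2) of each gene that averaged 1 CPM or more, by list, with the number of such genes in brackets; black bars are medians and dashed lines mark 2-fold. The 9 class II presentation genes (top, purple) lie on both sides of 0 with a median of 0.40. Interferon gamma genes have a median of 1.14 and macrophage markers a median of 3.04. Without the genes that passed the filter only through the brequinar library, these medians are 1.04 and 2.81.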

How the data were processed

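Poly(A)-selected, strand-preserving libraries were read as paired ends of 101 bases, per the labels' protocols. STAR 2.4.2a, Picard 1.99 and 2.2.4 and the build mm10 are named in the submitters' processing notes; their roles are not stated, and how reads were assigned to genes (program, strand, gene models) is not given in the sources used here. Deposited values are raw counts of reads per gene, made by the authors; 4 closing lines that name no gene (20.2% of reads in the brequinar library and 21.6% in the vehicle library; multimapping reads 6.92% in the brequinar library and 7.39% in the vehicle library) stayed out of library sizes.

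Of 45318 identifiers 44585 matched GENCODE mouse release 21 (GRCm38) without version. TMM factors from edgeR 4.0.16 under R 4.3.3 were 0.969 for brequinar and 1.03 for vehicle. Log2 ratios used a prior count of 2 and were called at 2-fold where the gene averaged 1 CPM or more. Fold intervals are exact (Clopper-Pearson, conditional on the summed count). Levels per kilobase used the union of annotated exons. Alternatives used DESeq2 1.42.0 among others. Scripts (Python 3.11.15, scipy 1.17.1, Biopython 1.88) were tested on simulated counts. Companion genes named are up to 4 with the largest absolute ratio in each list, the most abundant 2 in marker lists, and a set fixed by name, of which some are not reported here; Cd3e, Xcr1, Zbtb46, Clec9a, Ifng, Brd2, BC051537, Dexi and H2-Eb2 were added after their values were seen. The genes and lists were chosen with earlier results of these data known.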

Additional observations from a re-analysis of the deposited data

How the results depend on the processing

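Total-count scaling lowered the log2 ratios by 0.092 against TMM, and with it 662 genes were at least 2-fold higher and 632 lower. Over 60 recomputed ratios of single class II genes (4 other scalings and prior counts of 0.5 and 5), none changed sign and 57 stayed within the gene's counting interval. A scaling moves all ratios about alike, and the smallest in size was -0.35 (H2-DMb1), so a shift of 0.092 could turn no sign. The count of higher genes was 4 by TMM and 3 by total counts, by upper quartile and by totals without the 50 most abundant genes, H2-DMb2 being the gene lost, 3 at a mean of at least 5 CPM, which H2-Eb1 does not reach, and 5 without a filter, with Ciita. The count of lower genes was 1 in place of 2 at a mean of at least 5 CPM, which H2-Oa does not reach, and 1 with the whole interval beyond 2-fold, since the interval of H2-Oa begins at 1.98. The median log2 ratio was 0.71 without a filter and 0.71 at 5 CPM. The log2 fold of the summed level was -0.56 by total counts and -0.55 by totals without the 50 most abundant genes. Factors of Ciita promoters had 1 higher gene by total counts and 1 by upper quartile, and class I presentation had 1 lower gene by total counts. With transcripts of a consensus coding sequence, the DM over classical ratio in the brequinar library was 0.327 times that in the vehicle library, against 0.356. Of 36 recomputed within-library values, 30 moved beyond their interval with the length used. No paired analysis was possible because each treatment has 1 library.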
